A study of Drosophila melanogaster with 21 samples.

Results

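Among the transcripts measured in Drosophila S2 cells, 91 probesets had a high signal intensity early in the last of 3 RNAi time courses. They were selected on the 72 hr arrays: on the scale log2(signal + 32), experiment 3 exceeded experiment 2 by 1.3 or more in CoVa RNAi cells and also in GFP controls. A probeset, the set of short probes for 1 transcript on the array, also had to reach a signal of 100 on at least 3 of 20 arrays, which 9858 of 18769 probesets did. 95 probesets passed both differences and 94 of them had the required signal. Symbols starting Cyp, Gst, Ugt or Hsp and a single further probeset named in the rule were left out, which removed 3 and left the 91 members. The 72 hr differences between experiments 3 and 2 therefore chose the members, and they are given as a description with no test.

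S2 cells grow in culture, came from fly embryos and resemble haemocytes, the blood cells of insects. They were transfected by calcium phosphate with interfering RNA against CoVa, a nuclear-encoded subunit of cytochrome c oxidase, which is complex IV of the respiratory chain, or against GFP, a sequence that the fly genome lacks and that served as control. Total RNA was hybridized to Affymetrix Drosophila Genome 2 arrays in 3 time courses. CoVa RNAi and GFP cells of experiments 3 and 2 were collected at 72, 96, 120 and 168 hr, and those of experiment 1 at 48 and 168 hr, which gave 10 arrays of each condition. 1 array of untransfected cells at 48 hr of experiment 1 entered no comparison. All arrays came from 1 cell line, each experiment is 1 time course, and each array is 1 sample, so that p-values measure the spread between these arrays and not the spread between further cultures. Differences between experiments compare separate time courses, and biological and technical differences between these courses cannot be told apart.

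Cytochrome c oxidase has a catalytic core with small subunits such as CoVa around it, and loss of the enzyme slows the passage of electrons to oxygen. The members are not a pathway. By the array annotation 64 carried 1 gene, 1 carried a pair of genes (Fer1 and Jhbp16) and 26 carried none, or 28.6% of the members against 16.5% of the tested probesets. 62 members were matched to RefSeq by gene ID, and 33 had a CG number as their only name. A further 23 had a role known from flies or from related proteins of other animals and are described below in 5 groups, which were made with the values already seen. The groups were secreted proteases with their inhibitors and lectins, proteins of cuticle and chitin, membrane transporters and channels, genes best known from neurons and muscle, and enzymes.

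CoVa itself was lowered in 9 of 10 matched pairs of CoVa RNAi and GFP arrays. The loss was shallowest in experiment 3, at 24.8% at 72 hr and 45.6% at 168 hr, against 60.3% and 91.0% at the same times in experiment 2. In experiment 1 it was 72.9% at 168 hr, and at 48 hr the CoVa RNAi array was above its GFP array, a decrease of -14.0%. The arrays of experiment 3 stood apart in the shape of their values. Their medians over all probesets were 84.8 to 94.4, against 67.5 to 82.0 on the arrays of experiments 1 and 2. On the 72 hr arrays of experiment 3 the upper quartile was 442 to 479, below the 548 to 590 of every array of experiments 1 and 2. Between 4.23% and 4.80% of the probesets lay at the lowest listed value of 9.60 in experiment 3, against 6.05% to 7.71% in experiments 1 and 2. For the control transcripts, the ratio of the 3' to the 5' probeset on the CoVa RNAi and GFP arrays at 72 hr was 1.63 and 1.72 for actin in experiment 3, against 1.94 and 1.83 in experiment 2. The ratio for GAPDH was 1.24 and 1.32 in experiment 3 and 1.60 and 1.50 in experiment 2, and that for eIF-4a was 2.57 and 2.96 in experiment 3, against 2.37 and 2.61 in experiment 2. The part of these array properties in the results below was not tested. In such bulk RNA, fewer cells of a type and less RNA per cell cannot be told apart.

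The members were weakly to moderately expressed. At 72 hr of experiment 3 their median signal was 409 in CoVa RNAi cells and 408 in GFP controls, close to the medians of all tested probesets on these arrays, 434 and 400. At 72 hr of experiment 2 it was 103 in CoVa RNAi cells and 108 in GFP controls, while the tested probesets had medians of 522 and 514. 79 members reached 100 on all 8 arrays of experiment 3 and 38 did so on all 12 arrays of experiments 1 and 2, while 9 reached it on none of those 12. All 91 passed the filter on low values by the rule, and 1 did so with only 3 arrays at 100 or more. The rule turned round, with experiment 3 lower by 1.3 or more in both conditions, held for 736 probesets.

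**Figure D1:**
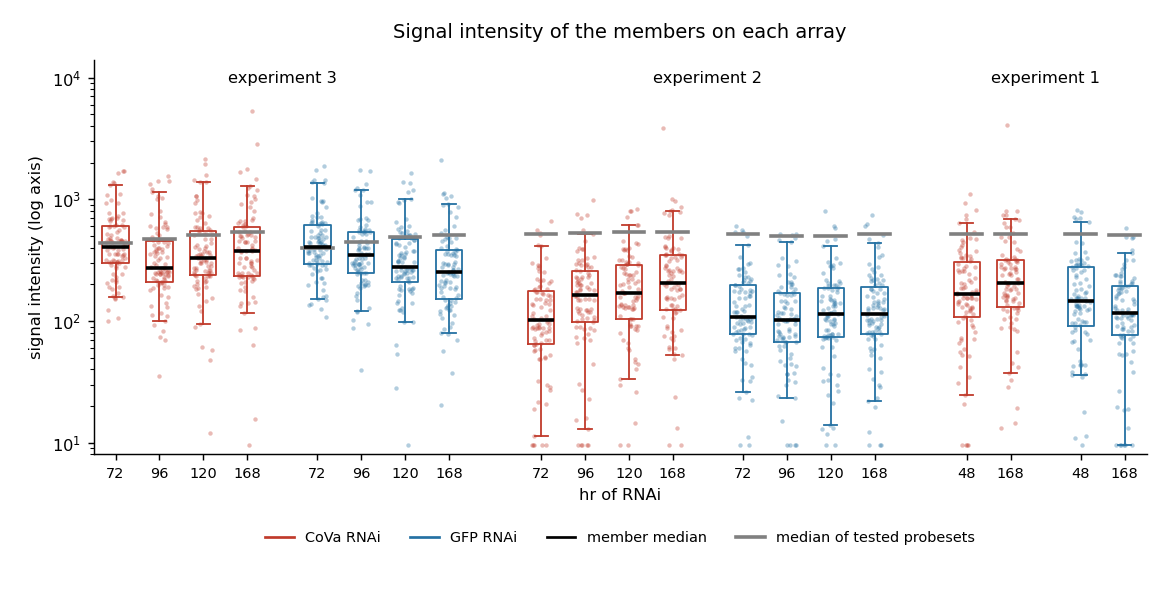
Signal intensity (log axis) of the 91 members on each of 20 arrays, 1 point per member, by experiment, condition and hr of RNAi; boxes span the quartiles, whiskers the 5th to 95th percentile, black bars the member median and grey bars the median of the tested probesets. At 72 hr the member medians were 409 and 408 in CoVa RNAi and GFP cells of experiment 3, against 103 and 108 in experiment 2, and in GFP cells of experiment 3 they were lower at each later time.

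Just inside the rule lay CG5080, with 1.3002 as the smaller of its 2 differences, Pura with 1.3024 and the chloride channel ClC-a with 1.3033. Just outside lay 1623538_at with 1.2978, CG18179 with 1.298 and 1637158_at with 1.2986. 126 probesets passed in CoVa RNAi cells alone and 68 in GFP controls alone. 7 members had differences of 2 or more in both conditions.

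The signal level at which the members lay was not that of the array as a whole. Experiment 1 took no part in the differences of the rule, though it entered the filter on low values. By their mean signal in experiment 1, 35 members fell between 100 and 200 and 26 between 200 and 400, where 15.8% and 14.0% of the tested probesets lay. 11 members had 50 to 100, 9 under 50 and 9 had 400 to 800, where 12.4%, 1.01% and 18.4% of the tested probesets lay. MFS3 alone was above 800, where 38.5% of the tested probesets lay. Its mean was set by the CoVa RNAi array at 168 hr, with 4064. Experiment 3 minus experiment 2 at 72 hr also varied with this level over all probesets of the array. Its median was 0.35 between 100 and 200 and 0.29 between 50 and 100, against -0.11 between 400 and 800 and -0.14 above 800. The 95th percentile was 1.23 between 100 and 200 and 1.21 between 200 and 400, against 0.32 above 800. The members' own median in these classes was between 1.49 and 2.21, above those percentiles, as the rule requires. The part of this shift of weak probesets in the members' differences was not tested.

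**Figure D2:**
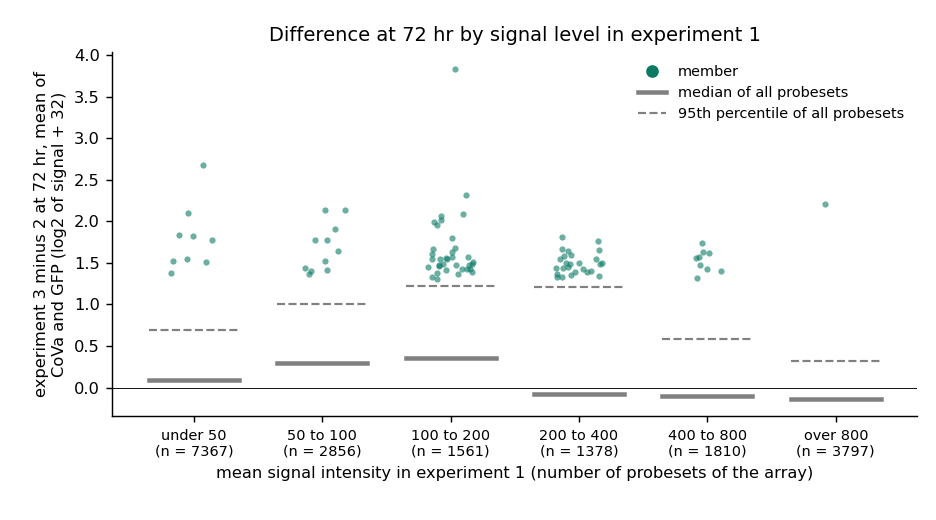
Experiment 3 minus experiment 2 at 72 hr (mean of CoVa RNAi and GFP, log2 of signal + 32) against the mean signal intensity in experiment 1, in 6 classes; green points are members, grey bars the median and dashed bars the 95th percentile of all probesets in the class. The median of all probesets was 0.35 in the class of 100 to 200, which held 35 members, and -0.14 above 800, which held 1.

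Other probesets for the same genes bear on how far a member stands for its gene. 17 member genes had 34 further probesets, of which 9, for 7 genes, reached the required signal. 5 of these 9 had a difference above 0 in both conditions at 72 hr, and 0 had a difference of 1 or more in both. The closest were a second vex probeset, with 1.13 in CoVa RNAi cells and 0.96 in GFP controls, and a second probeset of Dscam2, with 1.11 and 0.68. A ClC-a probeset with 1157 to 1222 at 72 hr of experiment 3 and 1529 to 1570 in experiment 2 had differences of -0.35 in CoVa RNAi cells and -0.39 in GFP controls. Another of Pura had -0.69 in CoVa RNAi and -0.68 in GFP cells, and another of jdp, which codes for a DnaJ-domain protein, had -0.81 and -1.74. Different probesets of a gene can read different transcripts, and which ones these read is not given in the sources used here.

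The largest differences at 72 hr belonged to transcripts with low signals at 72 hr of experiment 2. lectin-46Cb, a secreted C-type lectin that binds sugars, had signals of 722, 252, 283 and 453 at 72, 96, 120 and 168 hr in CoVa RNAi cells of experiment 3, and 440, 329, 192 and 133 in GFP controls. In experiment 2 its signals were 9.60, 72.4, 145 and 124 in CoVa RNAi cells and 9.60 at all 4 times in GFP controls, the lowest listed value, so that no fold is given. In experiment 1 it had 224 and 306 in CoVa RNAi cells at 48 and 168 hr, against 81.7 and 9.60 in GFP controls. Every array of experiment 3 lay above the array of experiment 2 with the same condition and time, but experiment 1 overlapped with experiment 3.

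TfIIA-S-2 codes for a second form of the small subunit of TFIIA, a general factor that helps the TATA-binding protein onto promoters. Its signals in experiment 3 were 389, 397, 315 and 553 in CoVa RNAi cells and 442, 322, 243 and 290 in GFP controls from 72 to 168 hr. In experiment 2 they were 32.2, 9.60, 14.4 and 23.7 in CoVa RNAi cells and 43.1, 23.2, 14.0 and 22.1 in GFP controls. Experiment 1 had 9.60 and 13.3 in CoVa RNAi cells and 10.9 and 13.2 in GFP controls at 48 and 168 hr. All 8 arrays of experiment 3 lay far above the other 12, none of which reached 100, and the courses of CoVa RNAi and GFP cells overlapped within each experiment.

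Ctl1, a choline transporter-like protein of the membrane, had 454, 589, 521 and 1010.5 in CoVa RNAi cells of experiment 3, against 379, 400, 334 and 469 in GFP controls. Experiment 2 had 98.2, 127, 104 and 136 in CoVa RNAi cells and 99.7, 115, 77.8 and 93.3 in GFP controls, and experiment 1 had 52.7 and 170 in CoVa RNAi cells against 34.5 and 119 in GFP controls. Its lowest array of experiment 3 had 334 and its highest elsewhere 170, so that the experiments did not overlap.

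Of the other leading members, Ance-3, a relative of angiotensin-converting enzyme, stood between 808 and 1030 on the arrays of experiment 3 and between 268 and 491 on the others. OtopLc, of the otopetrin family of proton channels, stood between 364 and 773 in experiment 3 and between 9.60 and 317 elsewhere. The uncharacterized CG9582 (258 to 494 in experiment 3, 68.0 to 181 elsewhere) and CG43104 (190 to 408, 83.2 to 122 elsewhere) were also separated without overlap. For Strn-Mlck, a giant muscle protein of the titin family with a kinase domain, the lowest array of experiment 3, with 155.5, overlapped with the highest of experiments 1 and 2, with 155.9. Spn77Ba, a serine protease inhibitor, and CG14695, of unknown function, also overlapped. In experiments 1 and 2 their CoVa RNAi cells at 168 hr reached levels of the GFP controls of experiment 3. CG3397, also of unknown function, overlapped because its GFP controls of experiment 3 were weak. They had 137, 39.9, 9.60 and 37.5 from 72 to 168 hr, and its highest array outside experiment 3 had 61.3.

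Whether the members stayed higher in experiment 3 after 72 hr was asked on the 16 arrays that the differences of the rule did not use. The filter on low values used all 20 arrays. In a limma fit with 1 mean for each experiment and time and a term for condition, 72 of the 91 members were higher in experiment 3 than in experiment 2 at 96 hr (adjusted p under 0.05), 60 at 120 hr and 36 at 168 hr. Of all tested probesets 15.2%, 13.2% and 7.58% were called higher at these times. Among the 91, 9 members reached 100 on no array of experiments 1 and 2 and passed the filter on low values through experiment 3 alone. A member that reached 100 on only 1 or 2 arrays of experiments 1 and 2 also needed experiment 3 to pass. Calls of the 9 and of such members as higher in experiment 3 are not independent of that filter. 33 members were called at all 3 times and 14 at none, against 4.51% and 79.8% of the tested probesets. The median fitted difference of the members was 1.11, 1.04 and 0.80 at these times, and that of all tested probesets was 0.01, 0.02 and 0.02.

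The difference was smaller from 96 hr on under CoVa RNAi. There the median of experiment 3 minus experiment 2 was 1.57, 0.75, 0.84 and 0.68 from 72 to 168 hr, whereas in GFP controls it was 1.48, 1.44, 1.17 and 0.82. At 96 hr 20 members were still at 1.3 or more in CoVa RNAi cells and 62 in GFP controls, against 0.791% and 2.34% of the tested probesets. In both conditions 16 were so, against 0.284% of the tested probesets. At 168 hr 8 members were at 1.3 or more in both conditions, and 86 were above 0 in both. Of the tested probesets 0.304% and 39.6% were so. The gap between the conditions at 96 hr was not tested, since each experiment has 1 array per condition and time.

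**Figure D3:**
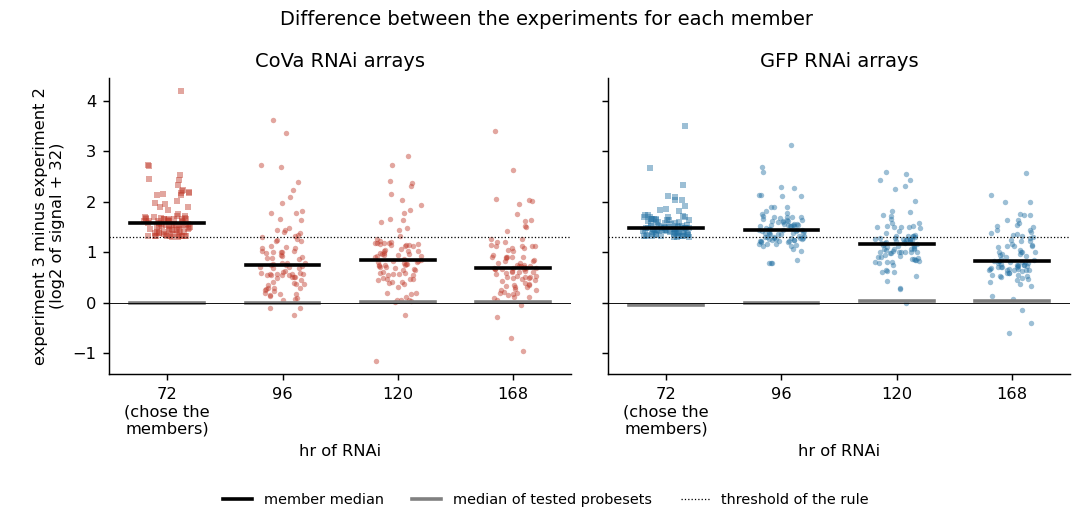
Experiment 3 minus experiment 2 (log2 of signal + 32) for each member at 72, 96, 120 and 168 hr, in CoVa RNAi arrays (left) and GFP arrays (right); black bars are member medians, grey bars medians of the tested probesets, the dotted line the threshold of 1.3, and squares the 72 hr values that chose the members. The medians were 0.75 in CoVa RNAi and 1.44 in GFP cells at 96 hr, and 0.68 and 0.82 at 168 hr.

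TfIIA-S-2 was higher in experiment 3 at 168 hr (limma adjusted p = 0.000168). It passed the filter on low values through experiment 3 alone, and the size of its difference depended on the value added to the near-floor signals of experiment 2, from 2.43 to 3.42 over the alternatives. Ctl1 had 2.32 ± 0.18 (SE; limma adjusted p = 0.000168). lectin-46Cb did not pass (limma adjusted p = 0.0826). The unnamed 1632312_at had 1.78 ± 0.36 (limma adjusted p = 0.0131). It reached 100 on only 1 array of experiments 1 and 2, so its call is not independent of the filter either. CG44325 had 1.75 ± 0.11 (limma adjusted p = 0.000127), with 2856 in CoVa RNAi cells and 2112 in GFP controls of experiment 3 at 168 hr, against 821 and 607 in experiment 2. Ance-3, CG43104, CG9582, CG14695 and Spn77Ba also passed at 168 hr, with differences of 0.91 to 1.50, whereas CG3397, MFS3 and OtopLc did not. Strn-Mlck passed with 1.64 ± 0.42 (limma adjusted p = 0.0321), but 5 of 8 alternatives lost this call, with adjusted p up to 0.0643, and 1 of 8 lost that of Spn77Ba.

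At the other end, 5 members had nearly lost or turned round the difference by 168 hr. Cpr64Ac, a cuticle protein with a chitin-binding domain, then had 9.60 in CoVa RNAi cells and 20.6 in GFP controls of experiment 3, and no size is given for it (limma adjusted p = 0.0556). The fitted differences of the other 4 were: 1628310_at -0.32, CG13731 -0.26, 1627368_at, the probeset with a pair of genes, -0.10, and 1624350_at 0.04. None of these 5 passed at 168 hr, and 1624350_at was the member whose direction at 168 hr turned with the scaling of the arrays. It was -0.15 after quantile normalization and -0.16 with the arrays set to a common median. CG13731 shows how late the loss came, with 928, 715, 724 and 373 in CoVa RNAi cells of experiment 3, against 656, 547, 510 and 124 in GFP controls. In experiment 2 CG13731 had 274, 400, 302 and 351 in CoVa RNAi cells and 212, 208, 60.9 and 204 in GFP controls, so that the experiments were apart until 120 hr and overlapped at 168 hr.

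Experiment 1 took no part in the differences of the rule, though it entered the filter on low values. Its 168 hr arrays gave a second comparison, which uses the same arrays of experiment 3. 42 of the 91 members were higher in experiment 3 than in experiment 1 at 168 hr in the limma fit, against 9.08% of all tested probesets. Here too the 91 include the 9 members that passed the filter on low values through experiment 3 alone. Others with few arrays at 100 or more in experiments 1 and 2 also needed experiment 3 to pass. These comparisons share their arrays of experiment 3, so each is given by its own count only. The fitted difference of CG44325 from experiment 1 was 2.11 ± 0.11 (limma adjusted p = 3.87e-05) and that of Ctl1 2.05 ± 0.18 (limma adjusted p = 0.00021). TfIIA-S-2 was called too, against signals of at most 13.3 at 168 hr of experiment 1. For 60 members both 168 hr arrays of experiment 3 lay above both of experiment 1, as for 25.2% of the tested probesets.

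Separation over all arrays was also counted. The 6 later arrays of experiment 3 all lay above the 6 of experiment 2 for 46 members and for 10% of the tested probesets. For 37 members every one of the 8 arrays of experiment 3 lay above all 12 others, as for 5.62% of the tested probesets. But the differences of the rule used the 4 arrays at 72 hr, and its filter on low values used all 20. These 37 include TfIIA-S-2, Ctl1, CG44325, CG9582, CG43104, Ance-3 and OtopLc of the leading members.

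In GFP controls of experiment 3 the members were lower at each later time. Their median signal was 408, 347, 276 and 252 at 72, 96, 120 and 168 hr, while the median of all tested probesets was 400 at 72 hr and 513 at 168 hr. 51 members were lower at every step, against 12.8% of the tested probesets, and 72 had their highest value at 72 hr, against 27%. The 72 hr arrays chose the members, so that lower values after them are partly set by the rule. From 96 to 168 hr, without those arrays, the median change was -0.42, with 78 members below 0, and over the tested probesets it was 0.03.

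CoVa RNAi cells of experiment 3 took another course. Their median was 409, 274, 327 and 373 at the 4 times. Between 72 and 96 hr the median change was -0.43 and 80 members were lower, while 62.9% of the tested probesets were higher. As in GFP controls, lower values after 72 hr are partly set by the rule. From 96 to 168 hr the median change was 0.22 and 73 members were higher, against 57.7% of the tested probesets. 7 members were lower at every step and 7 higher at every step, against 8.62% and 22.3% of the tested probesets, and 53 were highest at 72 hr, against 22.4% of the tested probesets. 27 members were highest at 168 hr, against 39.7%.

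In experiment 2 the members were low at 72 hr in both conditions, by the rule. In CoVa RNAi cells their median then was 103, 164, 170 and 206 at 72, 96, 120 and 168 hr. The median change from 72 to 168 hr was 0.74 and 85 members were higher, against 59.3% of the tested probesets. Since the rule chose low values at 72 hr of experiment 2, higher values after them are partly set by it. In GFP controls the median signal was 108, 102, 114 and 114, with a median change of -0.02. In experiment 1 the median was 166 at 48 hr and 204 at 168 hr in CoVa RNAi cells, and 146 and 117 in GFP controls.

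The change from 96 to 168 hr was tested over both conditions together in the same limma fit. In experiment 3 it was higher for 1 member, CG44325 (0.83 ± 0.11, limma adjusted p = 0.000548), and lower for CG13731 (-1.39 ± 0.38, limma adjusted p = 0.0314) and Cpr64Ac (limma adjusted p = 0.000974), while 15.1% of all tested probesets were higher and 1.95% lower. The members' median over both conditions was -0.08, between the 0.22 of CoVa RNAi cells and the -0.42 of GFP controls. In experiment 2, 0 members were called higher, as were 0% of all tested probesets, and at an unadjusted p under 0.05 there were 11 members, all higher, against 12.5% of the tested probesets in either direction. The change differed between experiments 3 and 2 for 1 member, Cpr64Ac (limma adjusted p = 0.0044), which passed the filter on low values through experiment 3 alone. It was more positive in experiment 3 for 0 members and for 5.63% of the tested probesets, and more negative for 0.284% of them. 15 members, 13 of them more negative, had an unadjusted p under 0.05 for this difference, as did 15.7% of the tested probesets, close to the members' share.

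Cpr64Ac had signals of 161, 74.3, 58.2 and 9.60 in CoVa RNAi cells of experiment 3, against 181, 102, 53.9 and 20.6 in GFP controls. In experiment 2 it had 11.3, 23, 57.9 and 48.5 in CoVa RNAi cells and 49.2, 24.1, 24.5 and 37.9 in GFP controls. It was above 100 on only 3 arrays, all of experiment 3, and its last value in CoVa RNAi cells was the lowest listed, so no size is given for its changes.

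**Figure D4:**
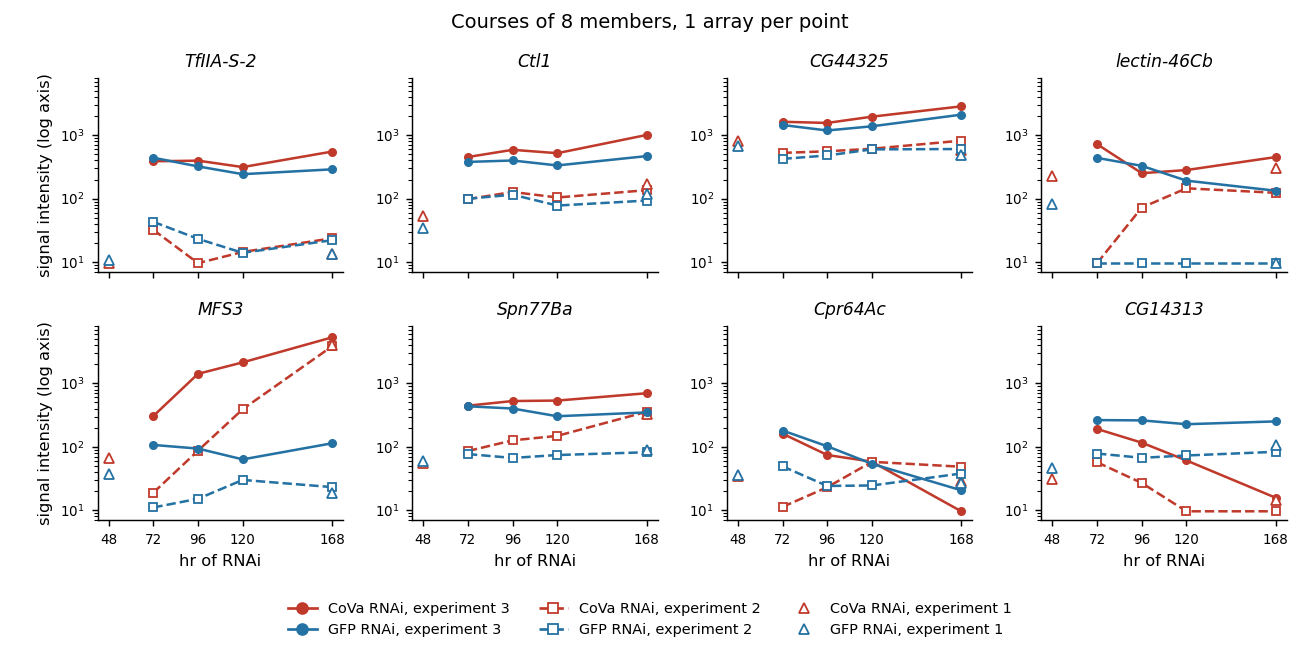
Signal intensity (log axis) of 8 members against hr of RNAi, 1 array per point; red is CoVa RNAi and blue GFP, filled circles are experiment 3, open squares experiment 2 and open triangles experiment 1. TfIIA-S-2, Ctl1 and CG44325 kept experiment 3 above the other arrays to 168 hr, MFS3 reached 5322, 3850 and 4064 in CoVa RNAi cells of experiments 3, 2 and 1 at 168 hr, and Cpr64Ac and CG14313 reached 9.60 and 15.7 in CoVa RNAi cells of experiment 3.

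The contrast of CoVa RNAi with GFP cells did not choose the members and was tested next. Over all 20 arrays, 4 members were higher in CoVa RNAi cells (MFS3, CG14695, CG5080 and 1634380_at) and 1 was lower (CG14313) by limma with no term for experiment, against 11.3% and 6.47% of the tested probesets. With the 10 matched pairs of 1 experiment and time as a block, 28 members were higher and 2 lower (CG14313 and CG12307), against 25.8% and 15.9%. The fit without a block includes the 72 hr arrays, on which the rule set the experiments apart, so its count of members is not independent of the rule. Without the 72 hr arrays it called 8 of the 91 members higher, and 1349 of all 9858 tested probesets. The 5 members called without the block were also called with it.

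At 168 hr, the time with 3 arrays a condition, 2 members were higher in CoVa RNAi cells without a block (MFS3 and CG5080) and 0 lower, against 9.14% and 7.44% of the tested probesets. At an unadjusted p under 0.05 there were 6 members, 5 of them higher and 1 lower, against 27.8% of the tested probesets. This fit took its spread from the arrays of all times, including those on which the rule set the experiments apart. That widens the members' standard errors, so the low counts of 2 and 6 without a block are partly set by the rule. They do not show how the members' response at 168 hr compares with that of the tested probesets. With the experiment as a block 27 were higher and 2 lower (CG14313 and CG12307), against 18.7% and 14.6%. All 3 CoVa RNAi arrays at 168 hr lay above all 3 GFP arrays for 20 of the 91 members and for 22.7% of the tested probesets, which is close to the members' share. This count also sets CoVa RNAi arrays against GFP arrays of other experiments. Differences between experiments, by which the members were chosen, therefore enter it, and it does not show how their response compares either.

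The counts depended on the experiments included. Without experiment 3, 15 members were higher in CoVa RNAi cells over all arrays, against 7.51% of the tested probesets. At 168 hr 44 were higher and 2 lower without experiment 3, against 15.7% and 9.64%. Without experiment 2, 0 of the 91 and 0 of all 9858 were called at 168 hr by limma, and 12 members and 1736 probesets had an unadjusted p under 0.05. In both of these fits at 168 hr only that time kept repeated arrays of a condition, so its few arrays alone gave the spread. Leaving out experiment 3 also takes out of the spread the differences between experiments by which the members were chosen. CoVa RNAi cells exceeded GFP controls at 168 hr in each of the 3 experiments for 72 members, against 39.4% of the tested probesets.

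By matched pair, the median difference between CoVa RNAi and GFP cells at 72 hr was -0.04 in experiment 3 and -0.08 in experiment 2. At 96 hr it was -0.27 in experiment 3 and 0.49 in experiment 2, at 120 hr 0.10 and 0.45, and at 168 hr 0.44 and 0.58. In experiment 1 it was 0.18 at 48 hr and 0.51 at 168 hr. The tested probesets had medians between -0.01 and 0.07 in all 10 pairs. At 96 hr 72 members were lower in CoVa RNAi cells of experiment 3 and 75 were higher in those of experiment 2, and this opposite direction at 1 time was not tested.

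**Figure D5:**
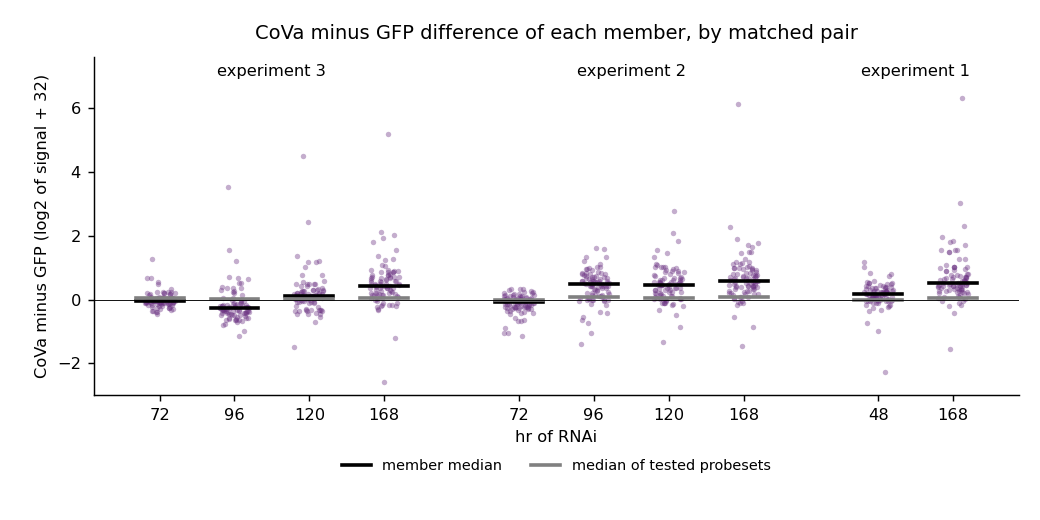
CoVa RNAi minus GFP (log2 of signal + 32) for each of the 91 members in the 10 matched pairs of arrays, by experiment and hr of RNAi; black bars are member medians and grey bars medians of the tested probesets. At 168 hr the member medians were 0.44, 0.58 and 0.51 in experiments 3, 2 and 1, and at 96 hr they were -0.27 in experiment 3 and 0.49 in experiment 2.

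MFS3, of the major facilitator superfamily of membrane transporters, was the member with the largest response. In CoVa RNAi cells it had 306, 1416, 2146 and 5322 from 72 to 168 hr of experiment 3, against 107, 93.6, 63.3 and 114 in GFP controls. In experiment 2 it had 18.9, 86.9, 392 and 3850 in CoVa RNAi cells, against 11.0, 15.1, 30.0 and 23.1 in GFP controls. In experiment 1 it had 66.5 and 4064 in CoVa RNAi cells at 48 and 168 hr, against 36.8 and 18.9 in GFP controls. Every CoVa RNAi array lay above its matched GFP array, and the 168 hr CoVa RNAi arrays of all 3 experiments lay above every other array. The fitted difference at 168 hr was 5.89 ± 0.99 (limma adjusted p = 0.0016), between 5.35 and 6.29 over the alternatives, and the call was lost without experiment 2 (adjusted p = 0.0676). Its signal in CoVa RNAi cells at 96 hr was 1416 in experiment 3, where CoVa was lowered by 30.7%, and 86.9 in experiment 2, where CoVa was lowered by 58.4%.

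MFS3 was also the only member found in the 19 gene lists written for cell stress, metabolism and cell types, which held 148 tested genes. It belongs to the list of sugar and solute transport, of which 15 genes were tested. Over all arrays 5 of these passed as higher under CoVa RNAi and 1 as lower, as at 168 hr, and at 168 hr 1 was higher and 1 lower in experiment 3 than in experiment 2. The lists for amino acid stress, starvation, oxidative and metal stress, JNK and wounding, immunity, JAK/STAT, ecdysone, p53 and cell death, hypoxia and glycolysis, lipids, and haemocyte adhesion held 0 members.

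CG5080, of unknown function, lay near MFS3 in the order of RefSeq genes, with 5 genes between them. It had 514.5, 629, 773 and 1774 in CoVa RNAi cells of experiment 3, against 528, 384, 363 and 383 in GFP controls. In experiment 2 it had 190, 315, 435 and 976 in CoVa RNAi cells, against 184, 146, 187 and 176 in GFP controls, and in experiment 1 203 and 809 against 156 and 186. At 168 hr the CoVa RNAi arrays lay above all GFP arrays, with a fitted difference of 2.12 ± 0.53 (limma adjusted p = 0.0175). Of 10 alternatives 2 lost this call, and of 13 alternatives 5 lost its call over all arrays. CG14695, with 450 to 665 in CoVa RNAi cells of experiments 3 and 1 at 168 hr and 258 in experiment 2, against 56.8 to 263 in GFP controls, which overlap at the top, differed by 1.22 ± 0.39 over all arrays (limma adjusted p = 0.034). 1634380_at differed by 0.95 ± 0.31 (limma adjusted p = 0.0358). Of 13 alternatives, 4 lost the call of CG14695 over all arrays and 4 lost that of 1634380_at.

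CG14313, also uncharacterized, fell in CoVa RNAi cells. In experiment 3 it had 191, 116, 60.8 and 15.7 in CoVa RNAi cells, against 264, 261, 227 and 252 in GFP controls. In experiment 2 it had 57.0, 26.8, 9.60 and 9.60 in CoVa RNAi cells, against 78.2, 67.0, 72.9 and 83.3 in GFP controls, and in experiment 1 31.1 and 14.6 against 47.0 and 105. It was lower in CoVa RNAi cells in all 10 pairs, and it was called lower over all arrays (limma adjusted p = 0.0242), a call that 3 of 13 alternatives lost. No size is given, since its last CoVa RNAi arrays lay at or near the lowest listed value. At 168 hr it had a limma adjusted p = 0.057 without and 0.000152 with the experiment as a block. CG12307 was lower with the block only, with 372 in CoVa RNAi cells and 903 in GFP controls at 168 hr of experiment 3.

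The members with a known role are given next, with examples picked after their values were seen. Among 5 secreted proteases, inhibitors and lectins, 4 were higher in experiment 3 than in experiment 2 at 168 hr. Of all 91 members 36 were, and of the tested probesets 7.58%. The 4 had fitted differences of 1.01 to 1.33, and lectin-46Cb did not pass. Spn77Ba, a serpin, had 446, 527, 536 and 699 in CoVa RNAi cells of experiment 3, against 435, 401, 303 and 349 in GFP controls. In experiment 2 it had 85.7, 126, 149 and 357 in CoVa RNAi cells and 76.7, 66.7, 74.1 and 82.0 in GFP controls, and in experiment 1 56.1 and 326 against 58.6 and 89.8. Its GFP controls stood apart between the experiments at every time, while CoVa RNAi cells at 168 hr lay at 326 to 699 in all 3, and with the experiment as a block it was higher by 1.42 ± 0.20 in CoVa RNAi cells at 168 hr (limma adjusted p = 0.000421). Phae2, a serine protease, had 140 to 228 in CoVa RNAi cells of experiment 3 and 147 to 198 in GFP controls, above the 49.4 to 131 of all other arrays, with a difference of 1.01 ± 0.20 from experiment 2 at 168 hr (limma adjusted p = 0.0115). epsilonTry, a trypsin, was 1.90 ± 0.25 higher in experiment 3 than in experiment 1 at 168 hr (limma adjusted p = 0.00172).

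Of the 3 proteins of cuticle and chitin, 0 were higher in experiment 3 at 168 hr, against 7.58% of the tested probesets. At 96 hr 2 were called, against 15.2%. The median change of the 3 in GFP controls of experiment 3 from 72 to 168 hr was -0.74. obst-E, a chitin-binding protein, had 307, 237, 200.5 and 248 in CoVa RNAi cells of experiment 3, against 344, 328, 262 and 211 in GFP controls. All 8 of these lay above the 88.7 to 154 of the other arrays. Peritrophin-15a, another chitin-binding protein, overlapped, with 122 to 255 in experiment 3 and up to 222 in CoVa RNAi cells of experiment 2.

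Among 6 transporters and channels, 3 were higher at 168 hr (Ctl1, ClC-a and Mpcp1), against 7.58% of the tested probesets. The group's fitted differences were 0.42 to 2.32. Mpcp1, a carrier that brings phosphate into mitochondria, had 444 to 664 in experiment 3 and 197 to 374 elsewhere, with a difference of 0.84 ± 0.18 (limma adjusted p = 0.0171). ClC-a, at the edge of the rule, had 1107 to 1383 in experiment 3 against 413 to 926 elsewhere, with 0.69 ± 0.13 (limma adjusted p = 0.00953). The chloride channel pHCl-1 overlapped between the experiments, and its 0.42 did not pass.

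Of 5 genes best known from neurons and muscle, 2 were higher at 168 hr, Strn-Mlck and Dscam2, against 7.58% of the tested probesets. Dscam2, an adhesion molecule of the immunoglobulin family by which neurites recognize each other, had 608 to 711 in CoVa RNAi cells of experiment 3 and 599 to 678 in GFP controls, against 172 to 463 and 197 to 314 on the other arrays of these conditions. Its difference was 0.93 ± 0.15 (limma adjusted p = 0.00631). Ten-a, a teneurin of synapses, cato, a proneural transcription factor, and Mlp60A, a LIM protein of muscle, had differences of 0.39 to 0.66 that did not pass. cato was weak, with 57.0 to 232 in experiment 3, and at 168 hr its arrays of experiment 3 were 63.4 in CoVa RNAi cells and 57.0 in GFP controls.

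The defining markers of these tissues and of other cell types were summed as well. Of the neuron markers elav, nSyb, Syt1 and brp, 3 were on the array, 2 were tested and 0 were members, and their summed signal at 72 hr was 196 to 228 in experiment 3, against 524 to 582 in experiment 2. For muscle (Mhc, up, Mlc2 and Act57B), 2 were found on the array, 1 was tested and up never reached 100. The summed muscle signal at 72 hr was 3184 to 3282 in experiment 3 and 1972 to 2080 in experiment 2. For fat body 2 of 4 markers, Fbp1 and Yp1, never reached 100, and the sum at 72 hr was 243 to 314 in experiment 3 and 205 to 220 in experiment 2. Crystal cell markers summed to 272 to 276 in experiment 3 and 280 to 302 in experiment 2, and lamellocyte markers to 6146 to 7281 in experiment 3 and 7331 to 7953 in experiment 2.

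The labelled cell type was only partly borne out by its markers. Of 9 markers of plasmatocytes or S2 cells 5 were tested, whereas He, Hml, NimC1 and Sr-CI never reached 100 on the 20 arrays. The sum of the 9 at 72 hr was 2493 to 2564 in experiment 3, against 5107 to 5395 in experiment 2, so that the blood cell markers were lower on the arrays where the members were high. Over all times the sums were 2493 to 5143 in experiment 3 and 5107 to 6972 in experiment 2. The part of these cell type differences in the members' levels was not tested.

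Of 4 enzymes, 2 were higher at 168 hr, against 7.58% of the tested probesets. These were Cbs and Antdh, the antennal dehydrogenase gene. Antdh reached only 35.5 to 150 in experiment 3 and at most 55.8 elsewhere. It passed the filter on low values through experiment 3 alone, so its call is not independent of that filter. Cbs, cystathionine beta-synthase of the pathway from methionine to cysteine, had 1111, 1414, 1588 and 1672 in CoVa RNAi cells of experiment 3, against 966, 889, 689 and 1032 in GFP controls. In experiment 2 it had 329, 393, 271 and 407 in CoVa RNAi cells and 334, 313, 283 and 333 in GFP controls, and in experiment 1 210 and 293 against 153 and 267. No array of experiment 3 overlapped with another, and the difference at 168 hr was 1.75 ± 0.24 from experiment 2 (limma adjusted p = 0.00269) and 2.11 ± 0.24 from experiment 1 (limma adjusted p = 0.000757). Mgstl, a microsomal glutathione transferase, is the next gene to Cbs in the RefSeq order. Its member probeset was weak, with 89.2 to 134 in experiment 3 and at most 59.7 elsewhere, and its other probeset, with signals of 3585 to 5233 at 72 hr, had differences of 0.42 in CoVa RNAi cells and 0.30 in GFP controls.

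Of the 26 members without a gene in the annotation, 9 were called higher at 168 hr, and of the 64 with 1 gene 27 were, with median differences of 0.72 and 0.84. From 72 to 168 hr of experiment 3 their median change was -0.17 in CoVa RNAi cells and -0.76 in GFP controls, and that of the members with 1 gene was -0.22 and -0.56. Among the 33 members with only a CG number, 11 were called at 168 hr. Of all 91 members 36 were called at that time, and of the tested probesets 7.58%.

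Other members, picked after their values were seen, show the span of courses. sinah, a relative of the ubiquitin ligase gene sina, had 446 to 640 in CoVa RNAi cells of experiment 3 and 452 to 530 in GFP controls, against 140 to 294 on the other arrays, and passed at 168 hr (1.09 ± 0.19, limma adjusted p = 0.00836). CG12307 had 1146 in GFP controls of experiment 3 at 120 hr, its highest array, and at most 405 on the arrays of experiments 1 and 2. Its CoVa RNAi array of experiment 3 at 168 hr, with 372, was the only one of experiment 3 within the range of the others.

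CG4830 had 755 to 805 in CoVa RNAi cells of experiment 3 and 437 to 644 in GFP controls, against 193 to 491 elsewhere, with a difference of 0.86 ± 0.14 at 168 hr (limma adjusted p = 0.00566). CG10184 had 948.5 to 1475 in experiment 3 and 129 to 865 elsewhere. CG17994 was weak and variable, with up to 244 in CoVa RNAi cells of experiment 3, up to 209 in GFP controls and at most 92.8 elsewhere, and its 0.96 did not pass. The 14 members called at none of the 3 later times were MFS3, OtopLc, cato, pHCl-1, Peritrophin-15a, CG13408, CG11191, CG15546, CG5080, 1627368_at and 4 probesets without a gene.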

How the data were processed

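Signal intensity was measured on Affymetrix Drosophila Genome 2 arrays. The deposited intensity values are linear: scanned images were handled by the authors in GCOS, dChip scaled each array against the one whose overall brightness was the median, and MAS5 stands in the labels with no version. The table held 18952 rows, 183 of them controls, over 21 arrays, with values from 9.60 to 16299. Arrays were not normalized again. Groups came from the sample labels. Log2(signal + 32) of the 9858 probesets with 100 or more on at least 3 of 20 arrays was fitted in limma 3.58.1 (R 4.3.3) with eBayes, at 0.05 after Benjamini-Hochberg adjustment across this whole set; tables used Python 3.11.15, numpy 2.4.6 and pandas 2.3.3. Precision is limited by how few arrays there are and, at low signal, by background; the fit without the 72 hr arrays had 7 residual degrees of freedom.

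CoVa RNAi was compared with GFP with no term for experiment, after the study's methods, and with blocks. The pairing of arrays comes from the shared experiment and time: deviations from the group means correlated by 0.956, 0.774 and 0.785 at 72, 96 and 120 hr, and by 0.582, 0.596 and 0.709 in experiments 1, 2 and 3 at 168 hr. Correlations between arrays were 0.851 to 0.995. The members, gene lists, marker lists and tests were chosen with earlier results of these data known. Named with values by rule were the 12 named members with the largest 72 hr difference, up to 5 called in each direction for CoVa, the 5 largest and 5 smallest at 168 hr, list members, the edge of the rule and CoVa; other members were named for their role after their values were seen. Where a gene had several probesets, lists used the one with the highest mean. Genes were named by the array annotation. The fits were tested on simulated data. Alternatives changed the normalization, the value added, the filter, the eBayes prior, the blocks, the terms and the arrays included.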

Additional observations from a re-analysis of the deposited data

Results flagged for a closer look

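Cpr64Ac was the only member whose change from 96 to 168 hr differed between experiments 3 and 2, with a fitted value of -1.78 (limma adjusted p = 0.0044). It passed the filter on low values through experiment 3 alone and had the lowest listed value in CoVa RNAi cells at 168 hr, so that -1.78 depends on the value added and is no measure of size. The medians of the members went opposite ways in 2 further comparisons, which were not tested. CoVa RNAi minus GFP at 96 hr had a median of -0.27 in experiment 3 and 0.49 in experiment 2, with 72 members below 0 and 75 above 0. From 96 to 168 hr of experiment 3 the median change was 0.22 in CoVa RNAi cells, with 73 members above 0, and -0.42 in GFP controls, with 78 below 0. Of the tested probesets 57.7% in CoVa RNAi cells and 53.7% in GFP controls were above 0 for this change.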

How the results depend on the processing

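The number of members depended on the scale: 163 with quantile normalization (85 of the 91 among them), 28 with arrays set to a common median, 149 with 16 added before log2 and 39 with 64 added. A common median moved the tested probesets' median of experiment 3 minus experiment 2 to -0.27, -0.24 and -0.20 at 96, 120 and 168 hr. Still called higher were 67, 53 and 36 members, against 808, 704 and 468 of 9858 tested probesets. Called higher in CoVa RNAi cells over all arrays were 28 members with the matched pairs as a replicate block, 20 with the experiment as a block, 8 without the 72 hr arrays, 0 without the 168 hr arrays and 1 with no filter on low values. The same fits called 2539, 1667, 1349 and 251 of 9858 tested probesets higher, and 960 of 18769 with no filter. Leaving out 1 experiment gave 1 to 15 higher and 0 to 1 lower, against 251 to 964 and 97 to 447 of 9858. With the pairing 2 were lower and without the 168 hr arrays 0, against 1571 and 75 of 9858. At 168 hr the experiment as a block gave 27 higher and 2 lower, against 18.7% and 14.6% of the tested probesets. Leaving out 1 experiment gave 0 to 44 higher and 0 to 2 lower, against 0 to 1549 and 0 to 950 of 9858. With quantile normalization, a common median or 16 added 1 was lower, against 794, 393 and 727 of 9858. For the change from 96 to 168 hr in experiment 3, a term for condition at each time gave 5 higher, leaving out experiment 1 gave 2 higher, quantile normalization 9 lower and no filter 1 lower. These fits called 1587, 1453 and 1152 of 9858 tested probesets in the same directions, and 83 of 18769 with no filter. Quantile normalization gave 2 members with a more negative change than in experiment 2, against 66 of 9858. 1624350_at turned to -0.15 with quantile normalization and -0.16 with a common median at 168 hr. Of 351 fits of named members under alternatives, 305 kept their direction and side of the threshold, 32 fell short of it, 12 newly passed it and 2 reversed. No paired fit was made for differences between experiments, in which condition is a term. The causes of these moves were not tested. Precision is limited by 1 array per experiment, condition and time.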

Other observations

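The array of untransfected cells at 48 hr of experiment 1 had a median member signal of 165, and 65 members reached 100 on it. The other 48 hr arrays of that experiment had medians of 166 in CoVa RNAi cells, where 70 members reached 100, and 146 in GFP controls, where 62 did. On the untransfected array TfIIA-S-2 had 14.0, lectin-46Cb 9.60, Ctl1 72.3, Cbs 184, MFS3 28.1 and CG13731 618. At 48 hr CG13731 had 543 in CoVa RNAi cells and 438 in GFP controls, so its 3 earliest arrays outside experiment 3 lay near its 72 and 96 hr signals of 547 to 928 in experiment 3.

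3 pairs of members lay close to each other in the RefSeq gene order: Cbs and Mgstl with 0 genes between them, CG44325 and Nost with 2, and CG5080 and MFS3 with 5. Both members of the CG5080 and MFS3 pair were higher in CoVa RNAi cells at 168 hr. Nost, the fly relative of nostrin, had 274 to 354 in experiment 3 and 57.2 to 151 elsewhere, again with no overlap. How often such neighbours occur among other probesets was not counted.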
